A study of Homo sapiens with 6 samples.

Results

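NADPH oxidase transcripts were examined in OVCAR5 cells with and without METTL3 overexpression. The group consisted of 10 of the 60649 gene rows of the raw count table, namely NOX1, NOX4, NOX5, DUOX1 and DUOX2, which encode catalytic subunits, and NOXA1, NOXO1, CYBA, DUOXA1 and DUOXA2, which encode partner subunits and maturation factors. The rows were found by matching each gene identifier without its version to these symbols, and all 10 had a row. NOX1 was chosen from its measured values in these libraries, because its fitted difference between the groups changed sign when replicate 1 was left out. The NOX1 values are therefore given as a description with no test, and the other members were taken by name.

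NADPH oxidases are membrane enzymes that pass electrons from NADPH across the membrane to oxygen and so make superoxide or hydrogen peroxide on purpose, as signals or for host defence. NOX1 is best known from the colon epithelium, where it works as a complex of the catalytic subunit with the CYBA protein p22phox in the membrane and with the organizer NOXO1, the activator NOXA1 and the GTPase RAC in the cytosol. The dual oxidases DUOX1 and DUOX2 carry an additional peroxidase-like domain, are found in thyroid and in mucosal epithelia, and need DUOXA1 or DUOXA2 to leave the endoplasmic reticulum.

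OVCAR5 is used in the study as a human ovarian cancer cell line. The METTL3-overexpressing group (3 libraries) came from cells transduced with a METTL3 lentivirus and kept under puromycin until expression was stable, and the vector control group (3 libraries) from cells that received empty lentivirus in the same way; the series design text calls the controls parental. METTL3 is the catalytic subunit of the complex that deposits N6-methyladenosine on mRNA. No cisplatin treatment is named in the labels, which also do not say whether replicates were separate cultures, so p-values measure only the spread between libraries, which may be technical. Total counts ranged from 96633925 to 125463386 per library. Where 3 values stand in a row, they are those of replicates 1, 2 and 3 of a group in that order. METTL3 itself, the check of the labels, measured 152.4, 165.5 and 175.3 CPM (reads of the gene per 1000000 counted reads of the library, after TMM scaling) in the METTL3-overexpressing libraries against 80.6, 68.6 and 71.6 CPM in the controls. Between same-numbered libraries the METTL3 log2 ratio was 0.92 in replicate 1, 1.27 in replicate 2 and 1.29 in replicate 3. METTL3 itself thus differed less between the groups in replicate 1. Replicate 1 stood apart in both groups. The chi-square per degree of freedom between the counts of pairs of libraries was 8.45 for METTL3-overexpressing replicates 2 and 3 and 8.75 for vector control replicates 2 and 3, but 69.4 to 151 between replicate 1 and either of the others of its group, so the results are given with and without replicate 1. Of counts from 1 to 20, between 67.6% and 70.5% per library were even numbers, so that a counted read may not be an independent molecule and counting intervals may be too narrow. In these bulk libraries, fewer cells that express a gene and less RNA per cell cannot be told apart.

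NOX1 (ENSG00000007952, chrX:100843324-100874359, minus strand, GRCh38) measured 3.65, 1.61 and 1.22 CPM in the METTL3-overexpressing libraries. The vector controls measured 1.87, 2.30 and 1.95 CPM. METTL3-overexpressing replicate 1 was the highest of the 6 libraries, METTL3-overexpressing replicates 2 and 3 were the lowest, and the 3 vector control libraries lay between them. The counts behind these levels were 412, 199 and 123 reads with METTL3 and 177, 260 and 215 reads with the vector. The 95% exact Poisson interval was 3.31 to 4.02 CPM in METTL3-overexpressing replicate 1 and 2.03 to 2.60 CPM in vector control replicate 2, the next highest library. These intervals cover counting error only and may be too narrow. They are no test, because NOX1 was chosen from these values.

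**Figure D1:**
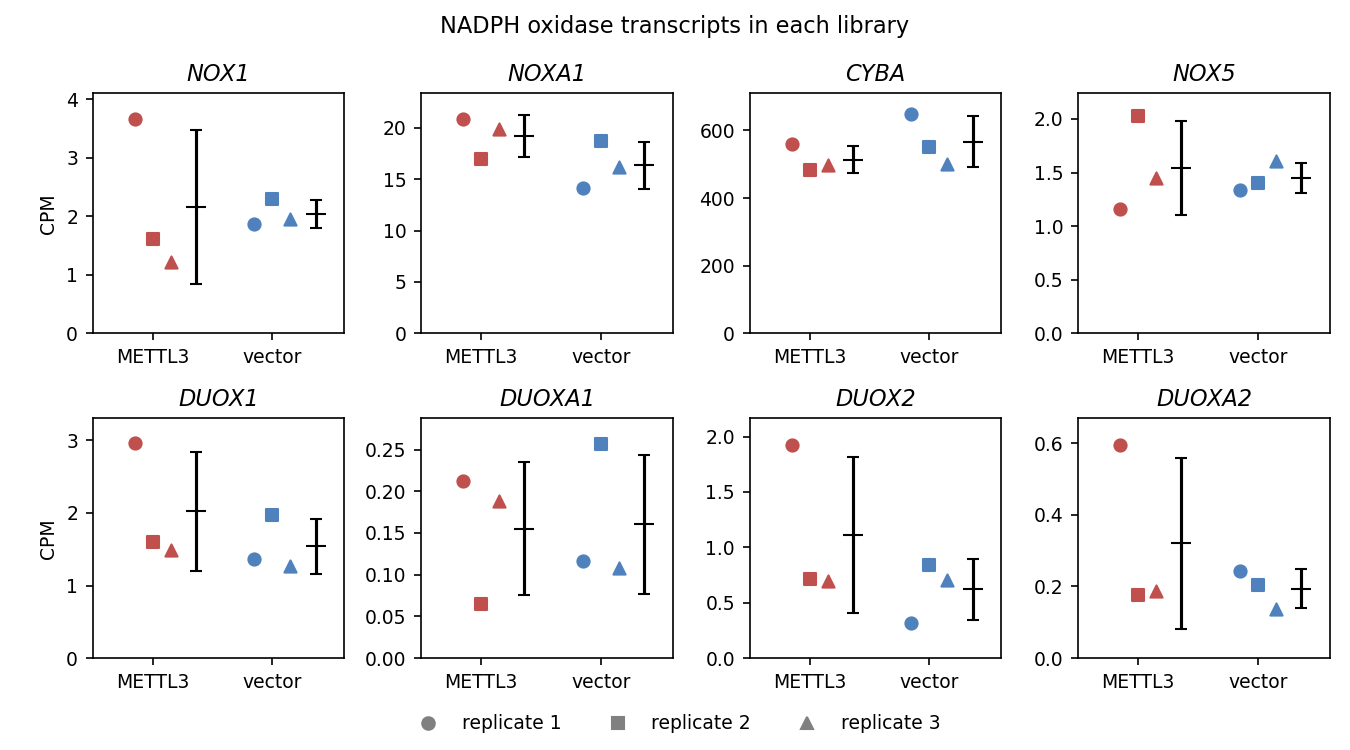
Each panel plots the CPM of 1 oxidase gene on an axis that starts at 0, with METTL3-overexpressing libraries in red, vector control libraries in blue, the replicate number as the symbol and the group mean with its SD (n = 3) in black. For NOX1 the red circle of replicate 1 is at 3.65 CPM and the other 5 libraries lie between 1.22 and 2.30 CPM.

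The sign of the NOX1 difference followed from that 1 library. Mean NOX1 was 2.16 ± 1.31 CPM with METTL3 against 2.04 ± 0.231 CPM in vector controls (SD, n = 3 per group), and the fit on all 6 libraries gave a log2 fold change of 0.08 (SE 0.383). Without replicate 1 of either group, the means were 1.41 CPM with METTL3 against 2.12 CPM in vector controls, and the fitted log2 fold change was -0.58 (SE 0.191). Leaving out METTL3-overexpressing replicate 1 alone gave -0.51 (SE 0.22), while leaving out any 1 of the other 5 libraries kept the value positive, from 0.02 to 0.38. Setting same-numbered libraries against each other, METTL3 minus vector was 1.79 CPM in replicate 1, -0.695 CPM in replicate 2 and -0.727 CPM in replicate 3. The positive difference in replicate 1 was thus larger than the sum of both negative ones.

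The way of averaging also set the sign, since the NOX1 difference over all 6 libraries was small beside its spread. The log2 ratios of METTL3 to vector were 0.97, -0.52 and -0.67 in replicates 1, 2 and 3. Their mean was -0.07, whereas the log2 ratio of the mean CPM of the groups was 0.08. With the other 5 libraries as measured, the mean CPM of the groups would be equal at a METTL3-overexpressing replicate 1 level of 3.29 CPM, and the mean log2 ratio would be 0 at 4.27 CPM. The measured 3.65 CPM lay between these levels. A fit with the replicate number as a block, which compares libraries of the same number, gave -0.071 (SE 0.343). In both fits on all 6 libraries the standard error was more than 4 times the size of the NOX1 difference.

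**Figure D2:**
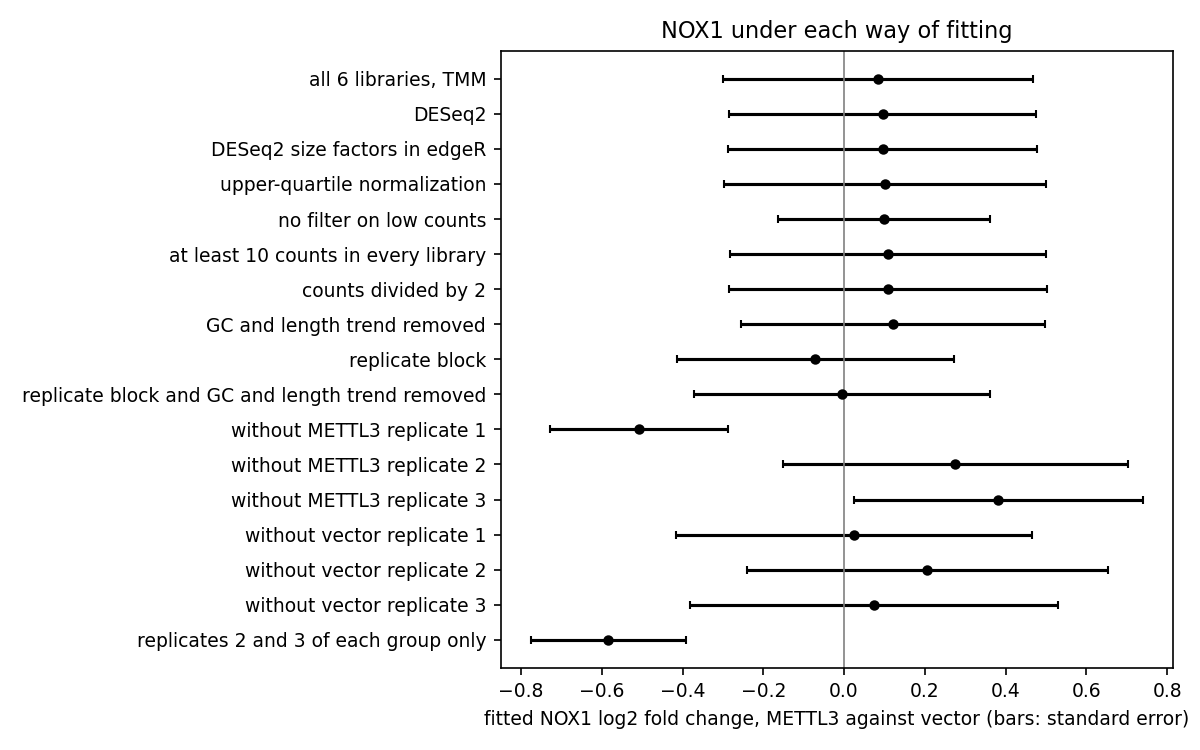
The points give the fitted NOX1 log2 fold change, METTL3 against vector, for each setting named on the vertical axis, with the standard error as a bar. The value is positive, from 0.02 to 0.38, in 13 settings and negative in 4, namely the replicate block (-0.071), the block with the GC and length trend removed (-0.0057), without METTL3-overexpressing replicate 1 (-0.51) and replicates 2 and 3 only (-0.58).

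A change of sign was common among all genes. Of 21721 genes fitted in both, 22.9% had log2 fold changes of opposite sign in all 6 libraries and in replicates 2 and 3, and 10.3% shared the NOX1 combination of a negative value in replicates 2 and 3 and a positive one in all 6. Both fits share 4 libraries. Of the 8 members tested, 3 had opposite signs, NOX1, DUOX1 and DUOX2, which is 2 of the 7 tested members other than NOX1. METTL3-overexpressing replicate 1 held the highest level of the 6 libraries in 25.1% of genes. The same held for 5 of the 8 tested members, or 4 of 7 without NOX1, namely NOXA1, DUOX1, DUOX2 and DUOXA2. In 0.98% of genes that library was at least 2 times the next highest, and DUOX2 (2.29 times) and DUOXA2 (2.45 times) were among them, whereas NOX1 was at 1.59 times. The latter counts were made after the NOX1 values had been seen.

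The 250 bases before the NOX1 start (chrX:100874360-100874609, minus strand, GRCh38.p14, from RefSeq) are shown because the factors listed for this promoter were measured in the same libraries. Capitals mark TTTATG, searched as a CDX2 motif, and TTATCT, the reverse complement of the GATA motif AGATAA.
NOX1: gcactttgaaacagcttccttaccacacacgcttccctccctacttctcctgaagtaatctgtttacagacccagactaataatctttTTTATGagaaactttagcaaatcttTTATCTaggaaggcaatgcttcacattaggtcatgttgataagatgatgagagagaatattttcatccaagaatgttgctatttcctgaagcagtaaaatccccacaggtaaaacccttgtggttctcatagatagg
On either strand the AGATAA letters had 1 match, 137 bases before the start, and 9.17% of 35116 promoters of this length held them. The TTTATG letters had 1 match, 162 bases before the start, and 9.64% of promoters held them. TATAAA (10.7% of promoters) had no match in this window. A match is a description of the letters only.

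The transcription factors described here were CDX2, an intestinal homeobox factor, and GATA4, GATA5 and GATA6. GATA6 measured 12.2, 9.33 and 9.88 CPM in the METTL3-overexpressing libraries against 8.43, 13.57 and 14.03 CPM in the controls. It was higher with METTL3 in replicate 1 and lower in replicates 2 and 3, and the groups overlapped over all 6. GATA6 fell with METTL3 in replicates 2 and 3 by 0.53 on the log2 scale (SE 0.0827, edgeR adjusted p = 0.000513), where 15.2% of all genes were called. CDX2, at 8.27 to 11.1 CPM, was not called in any comparison, and GATA5 failed the filter on low counts. Whether GATA6 has a part in the NOX1 values was not tested.

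The cytosolic and membrane partners of NOX1 were present at unequal levels. Per kilobase of exon, CYBA had the highest level with a mean of 129.6 CPM, from 116.1 to 155.6 CPM over the 6 libraries. NOXA1 followed at 10.6 CPM per kilobase (8.45 to 12.4), NOX1 at 0.825 (0.479 to 1.44) and DUOX1 at 0.203 (0.145 to 0.338). The ranges of these 4 neighbours did not overlap. Below them, NOX5 at 0.122 CPM per kilobase, DUOXA2 at 0.101, DUOX2 at 0.0897 and DUOXA1 at 0.0424 had ranges that overlapped with that of the gene before them. NOXO1 and NOX4 were last, both at 0.0064 CPM per kilobase.

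**Figure D3:**
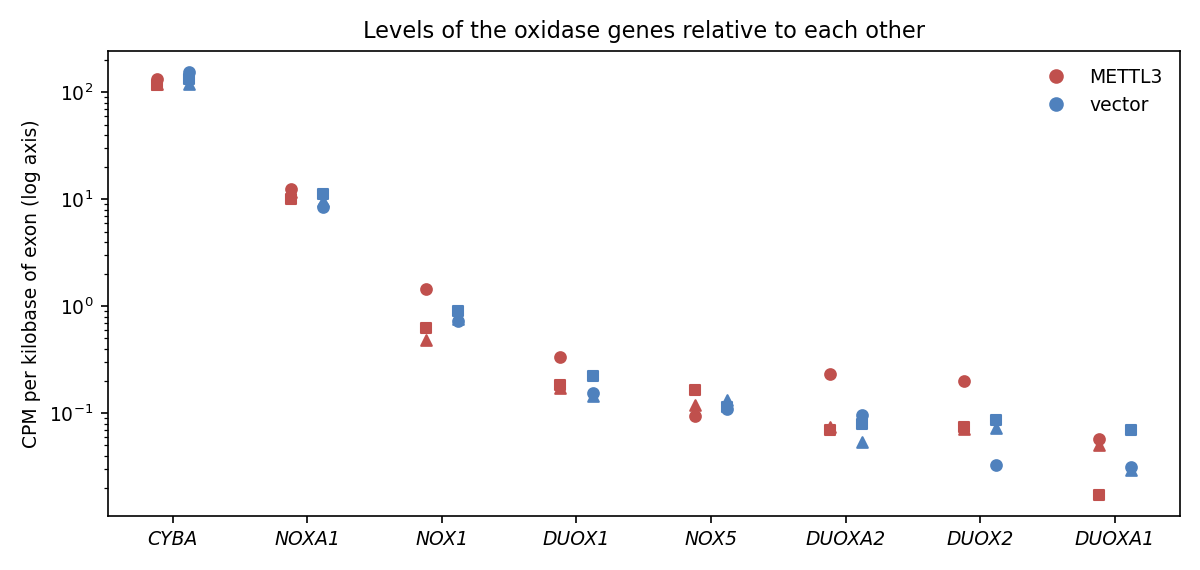
The level of each oxidase gene that passed the filter on low counts is plotted as CPM per kilobase of merged exons on a log axis, 1 point per library, with circles, squares and triangles for replicates 1, 2 and 3. CYBA lies highest at a mean of 129.6, NOXA1 at 10.6 and NOX1 at 0.825 CPM per kilobase.

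NOXO1 (ENSG00000196408, chr16:1978917-1984192, minus strand), the organizer that holds the NOX1 complex together, had 3, 2 and 0 reads in the METTL3-overexpressing libraries and 3, 0 and 1 reads in the controls. All 6 libraries were at or under the floor of 3 counts, so no fold change is given. TBL3 exons on the other strand cover 98.8% of the NOXO1 exonic bases, and without a stated strand setting these reads cannot be assigned with certainty. SH3PXD2A and SH3PXD2B, which encode TKS5 and TKS4, related organizer proteins, were in contrast at 32.3 to 52.8 CPM and 45.6 to 97.8 CPM.

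NOXA1 (ENSG00000188747, chr9:137423350-137434406, plus strand) measured 20.8, 16.9 and 19.9 CPM in the METTL3-overexpressing libraries against 14.2, 18.7 and 16.2 CPM in the controls. The groups overlapped through METTL3-overexpressing replicate 2 and vector control replicate 2. Its log2 fold change was 0.23 in all 6 libraries (SE 0.15, edgeR adjusted p = 0.667) and 0.07 in replicates 2 and 3 (SE 0.0916, edgeR adjusted p = 0.685). CYBA (ENSG00000051523, chr16:88643275-88651083, minus strand), whose product p22phox stabilizes several NOX proteins, was at 558.5, 483.0 and 497.1 CPM with METTL3 against 647.6, 550.5 and 499.6 CPM with the vector. Vector control replicate 1 was the highest library, and METTL3 lay below the vector within each replicate number although the groups overlapped. Its log2 fold change was -0.14 in all 6 libraries (SE 0.138, edgeR adjusted p = 0.769) and -0.10 in replicates 2 and 3 (SE 0.0555, edgeR adjusted p = 0.269). With the replicate number as a block in replicates 2 and 3, CYBA passed the test at the same size (-0.10, edgeR adjusted p = 0.0393).

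NOX5 (ENSG00000255346, chr15:69014695-69062762, plus strand) encodes a calcium-activated oxidase that needs no cytosolic subunit. It measured 1.16, 2.03 and 1.45 CPM in the METTL3-overexpressing libraries against 1.34, 1.40 and 1.61 CPM in the controls. METTL3-overexpressing replicate 1 was the lowest library for NOX5 and replicate 2 the highest. Its log2 fold change was 0.09 in all 6 libraries (SE 0.251, edgeR adjusted p = 0.929) and 0.21 in replicates 2 and 3 (SE 0.203, edgeR adjusted p = 0.571).

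NOX4 (ENSG00000086991, chr11:89324353-89498187, minus strand) encodes an oxidase that is active without cytosolic subunits and mostly yields hydrogen peroxide. It had 0, 0 and 1 reads in the METTL3-overexpressing libraries and 5, 5 and 14 reads in the controls. The groups did not overlap, and every vector control library was above every METTL3-overexpressing one. Groups did not overlap in 17.4% of the genes that passed the filter on low counts, and no such share was taken for genes with as few reads as NOX4. The summed counts of 1 and 24 gave a ratio of vector to METTL3 of 25.5, with a 95% counting interval from 4.15 to 1047 that leaves out the spread between libraries. NOX4 failed the filter on low counts. With no filter, under which 1.3% of 43096 genes passed in all 6 libraries, NOX4 did not (edgeR unadjusted p = 0.00426, adjusted p = 0.187). In replicates 2 and 3 with no filter 9.67% of genes passed, and NOX4 again did not (edgeR unadjusted p = 0.0119, adjusted p = 0.102). These values rest on 14 reads or fewer per library. Every METTL3-overexpressing library was under the floor of 3 counts, so the size of the ratio rests on 1 read in that group.

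The 4 dual oxidase genes lie together on chromosome 15 as a pair of head-to-head partners. DUOX2 (ENSG00000140279, chr15:45092650-45114172, minus strand) and its maturation factor DUOXA2 (ENSG00000140274, chr15:45114326-45118421, plus strand) start 153 bases apart. DUOX1 (ENSG00000137857, chr15:45129933-45165576, plus strand) and DUOXA1 (ENSG00000140254, chr15:45117366-45129938, minus strand) overlap by 6 bases at their starts. The bases between DUOX2 and DUOXA2 (chr15:45114173-45114325, GRCh38.p14, from RefSeq) are shown in the direction of DUOXA2, because both genes were highest in the same library, and capitals mark TATAAA.
DUOX2 to DUOXA2: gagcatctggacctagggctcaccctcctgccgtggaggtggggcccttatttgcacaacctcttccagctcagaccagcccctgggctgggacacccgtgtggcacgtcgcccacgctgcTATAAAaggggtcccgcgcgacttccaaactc
The TATAAA letters had 1 match on either strand, 32 bases before the DUOXA2 start, and 6.82% of promoters cut to this length held them. AGATAA (5.33%) and TTTATG (5.76%) had no match there.

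DUOX2 measured 1.92, 0.718 and 0.694 CPM in the METTL3-overexpressing libraries against 0.316, 0.841 and 0.706 CPM in the controls. METTL3-overexpressing replicate 1 stood highest and vector control replicate 1 lowest, while the other 4 libraries lay within 0.694 to 0.841 CPM. DUOXA2 was at 0.594, 0.178 and 0.188 CPM with METTL3 against 0.243, 0.204 and 0.136 CPM with the vector, again with METTL3-overexpressing replicate 1 apart from the rest. The DUOX2 log2 fold change was 0.83 in all 6 libraries (SE 0.492, edgeR adjusted p = 0.65) and -0.13 in replicates 2 and 3 (SE 0.249, edgeR adjusted p = 0.798). That of DUOXA2 was 0.72 in all 6 (SE 0.542, edgeR adjusted p = 0.704) and 0.10 in replicates 2 and 3 (SE 0.501, edgeR adjusted p = 0.93). DUOXA2 rested on 15 to 67 reads per library, and 27.7% of its exonic bases lie opposite DUOXA1.

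DUOX1 measured 2.97, 1.606 and 1.496 CPM in the METTL3-overexpressing libraries against 1.37, 1.97 and 1.28 CPM in the controls. Vector control replicate 2 lay above METTL3-overexpressing replicates 2 and 3, so the groups overlapped. Its log2 fold change was 0.39 in all 6 libraries (SE 0.317, edgeR adjusted p = 0.725) and -0.07 in replicates 2 and 3 (SE 0.214, edgeR adjusted p = 0.888). DUOXA1 had only 8 to 29 reads per library, at 0.213, 0.0646 and 0.188 CPM with METTL3 against 0.116, 0.257 and 0.109 CPM in controls. Its log2 fold change was -0.07 in all 6 libraries (SE 0.568, edgeR adjusted p = 0.982).

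METTL3 overexpression was associated with no called change in any of the 7 members tested besides NOX1, in either comparison of the groups fitted without the replicate block. With the block in replicates 2 and 3, CYBA passed (-0.10, edgeR adjusted p = 0.0393), and with the block and the GC and length trend removed NOXA1 passed (0.19, edgeR adjusted p = 0.0251). In all 6 libraries the background was 0% of 22038 genes with an adjusted p under 0.05 by edgeR. There 8.3% (1830 genes) had an unadjusted p under 0.05, and DESeq2 called 280 genes. The overexpressed METTL3 itself did not pass there (log2 fold change 1.16, edgeR adjusted p = 0.072). The lack of calls in all 6 libraries therefore does not show that the members were unchanged. In replicates 2 and 3 the background was 15.2% of 22046 genes. The groups did not overlap in 17.4% of genes over all 6 libraries, and in 0 of the 8 tested members. Replicate 1 differed from replicates 2 and 3, with the group as a covariate, in 9.06% of genes and in none of the 7 members, of which DUOXA2 came nearest (log2 difference 1.17, SE 0.379, edgeR adjusted p = 0.0982).

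**Figure D4:**
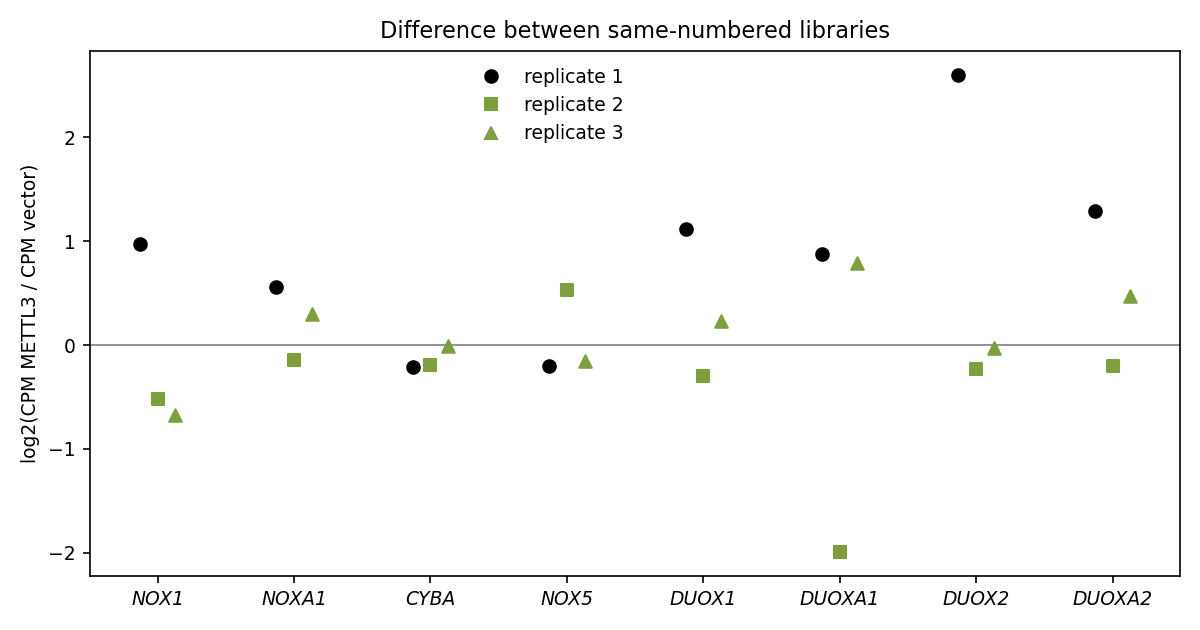
For each gene the log2 ratio of METTL3-overexpressing to vector control CPM is plotted within replicate 1 (black circles), replicate 2 (squares) and replicate 3 (triangles). The replicate 1 ratio is the highest of the 3 for NOX1, NOXA1, DUOX1, DUOXA1, DUOX2 and DUOXA2, and is negative for CYBA and NOX5.

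The METTL3 difference in replicate 1 was then compared directly with that in replicates 2 and 3 through an interaction term. Replicate 1 holds 1 library per group, so this test compares those libraries on the assumption that they vary like replicates 2 and 3, with 2 residual degrees of freedom. The difference passed in 30.2% of all genes and in 3 of the 7 members, all positive. DUOX2 had the largest, with a log2 ratio of 2.60 in replicate 1 beside -0.23 and -0.03 in replicates 2 and 3 (fitted difference 2.73, SE 0.433, edgeR adjusted p = 0.000451). DUOX1 had log2 ratios of 1.12, -0.30 and 0.23 (fitted difference 1.18, SE 0.365, edgeR adjusted p = 0.0261). NOXA1 had log2 ratios of 0.56, -0.15 and 0.30 (fitted difference 0.48, SE 0.163, edgeR adjusted p = 0.0402). For NOX1 the fitted difference was 1.55 (SE 0.314), given without a test. That of METTL3 itself was -0.36 (SE 0.094), so replicate 1 also held the smaller difference in METTL3.

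The 4 members that did not pass had fitted differences of 1.43 for DUOXA1 (SE 1.14, edgeR adjusted p = 0.397), 1.18 for DUOXA2 (SE 0.742, edgeR adjusted p = 0.271), -0.42 for NOX5 and -0.11 for CYBA. Once the dependence on GC content and transcript length was removed per library, the differences of NOXA1 (0.12, edgeR adjusted p = 0.555) and DUOX1 (0.68, edgeR adjusted p = 0.152) no longer passed. CYBA then did (-0.34, edgeR adjusted p = 0.00242), and DUOX2 remained called (2.27, edgeR adjusted p = 0.000951). Within METTL3-overexpressing cells, replicate 1 was 2.73 times the mean of replicates 2 and 3 for DUOX2, 3.25 times for DUOXA2, 2.59 times for NOX1 and 1.92 times for DUOX1. Within vector control cells the same ratio was 0.409 for DUOX2, 1.43 for DUOXA2, 0.879 for NOX1 and 0.844 for DUOX1. The DUOX2 difference thus came from both groups moving apart in replicate 1, and the NOX1 difference mostly from the METTL3-overexpressing library.

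**Figure D5:**
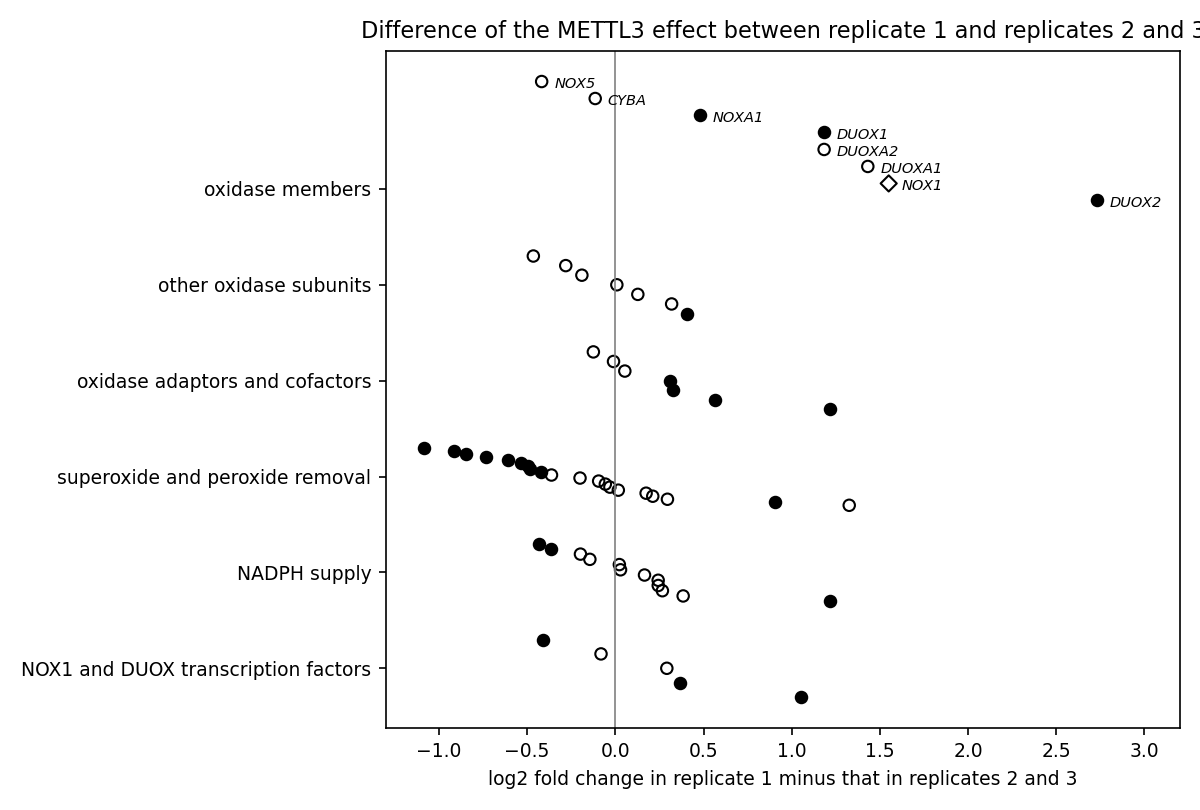
Each point is 1 tested gene of the list named on the vertical axis, placed by its log2 fold change in replicate 1 minus that in replicates 2 and 3. Filled points passed edgeR's test (adjusted p under 0.05), open circles did not, and the diamond is NOX1, which was not tested; DUOX2 lies farthest to the right at 2.73.

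Other oxidase subunits described here were CYBB, NOX3, NCF1, NCF4, CYBC1, RAC1, RAC2 and RAC3, of which NOX3 and NCF1 failed the filter on low counts. CYBC1 rose and RAC2 fell in replicates 2 and 3, against a background of 15.2% of all genes called. CYBC1, a chaperone of the NOX2 heterodimer, rose by 0.21 (edgeR adjusted p = 0.0252), a call lost without METTL3-overexpressing replicate 3 (edgeR adjusted p = 0.164) or vector control replicate 3 (edgeR adjusted p = 0.108). RAC2 fell there by 0.28 on the log2 scale (edgeR adjusted p = 0.00157), but not in replicate 1. Its log2 ratios of METTL3 to vector were 0.13, -0.28 and -0.28 in replicates 1, 2 and 3. The fitted difference between replicate 1 and replicates 2 and 3 was 0.40 (SE 0.0847). CYBB, the catalytic subunit NOX2, stayed at 0.362 to 1.05 CPM and did not pass (log2 fold change 0.82, edgeR adjusted p = 0.0703).

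Among 7 adaptors and cofactors, TXNDC11, a DUOX-associated thioredoxin-like protein (log2 fold change 0.39, edgeR adjusted p = 0.000491), and P4HB, protein disulfide isomerase (0.24, edgeR adjusted p = 0.00477), rose in replicates 2 and 3 and none fell, which is 28.6% against 15.2% of all genes. In the interaction test of replicate 1 against replicates 2 and 3, 4 of the 7 passed, all with a positive difference (57.1% against 30.2% of all genes). Named after their values were seen, these were SH3PXD2B (1.22), SH3PXD2A (0.57), ARHGEF7 (0.33) and P4HB (0.31). The same test passed for GATA6 (1.05) and GATA4 (0.37), both with a positive difference. None of these differences was examined with the GC and length trend removed. In the interaction test 14.3% of the other oxidase subunits passed (1 positive, 0 negative). Of the genes of NADPH supply 25.0% passed (1 positive, 2 negative). Both shares were under the 30.2% of all genes. Of 12 genes of NADPH supply, IDH1 (0.26, edgeR adjusted p = 0.00345) and PGD (0.21, edgeR adjusted p = 0.0132) rose in replicates 2 and 3, a share of 16.7% that is near the 15.2% of all genes. The PGD call was lost without METTL3-overexpressing replicate 2 (edgeR adjusted p = 0.0695) or vector control replicate 3 (edgeR adjusted p = 0.0637).

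Genes that remove superoxide and peroxide had 20 tested of 23 listed, and SOD2 had no matched row. Of these, 2 rose and 3 fell in replicates 2 and 3 (25.0% against 15.2%), with a median log2 fold change of -0.01 beside -0.003 over all genes. CAT, catalase, fell by 0.32 on the log2 scale (edgeR adjusted p = 0.00107), GPX2, an epithelial glutathione peroxidase, fell by 0.31 (edgeR adjusted p = 0.00198), and PRDX2 rose by 0.28 (edgeR adjusted p = 0.0031). In the test of replicate 1 against replicates 2 and 3 this list went mostly the other way from NOX1 and the DUOX genes, with 9 negative and 1 positive of 20 (50% against 30.2%) and a median difference of -0.28 beside 0.00 over all genes. TXN (-1.08), GPX1 (-0.91), PRDX1 (-0.85) and SOD1 (-0.74) led it, and AQP3 (0.90), an aquaporin that also passes hydrogen peroxide, was the 1 positive gene. These 5 were named after their values were seen. The differences of this list were not examined with the GC and length trend removed, after which those of DUOX1 and NOXA1 no longer passed. In all 6 libraries 0 genes of these lists were called, at a background of 0%.

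By Pearson's correlation of log2(CPM + 0.1) over the 6 libraries, among 14683 genes with a mean of at least 1 CPM, the genes most like NOX1 were PCBP1-AS1 (r = 0.991), SNED1 (0.984), ADSS1 (0.983), KCNJ4 (0.982) and GSN (0.980). KCNJ4, a potassium channel gene, was the nearest of these to NOX1 in size, at 2.38, 0.888 and 0.575 CPM with METTL3 against 0.949, 1.17 and 0.887 CPM in controls in replicates 1, 2 and 3. All 5 were highest in METTL3-overexpressing replicate 1. With 6 points that share libraries and 1 library far from the rest, these values describe the pattern only.

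The cell line label was set beside markers, which do not settle the tissue of origin. EPCAM, CDH1, KRT8, KRT18, KRT19 and CLDN4 were all above 180 CPM in every library. All 6 rose in replicates 2 and 3, where 15.2% of all genes were called, led by CDH1 (log2 fold change 0.91), EPCAM (0.71) and KRT19 (0.53). Over all 6 libraries 0 of them were called. In replicate 1 the log2 ratios of METTL3 to vector were negative for EPCAM (-0.14), KRT8 (-0.23), KRT18 (-0.22) and KRT19 (-0.09). Those of CDH1 (1.13) and CLDN4 (0.17) were positive. Of ovarian lineage markers, PAX8 was at 6.38 to 11.6 CPM, WT1 and SOX17 were under 0.21 CPM, and MUC16 was at 49.4 CPM in METTL3-overexpressing replicate 1 and at 1.98 to 7.20 CPM elsewhere, so that library stood apart there as it did for NOX1. The leukocyte markers PTPRC, CD68 and SPI1 and the fibroblast markers DCN and COL1A2 stayed under 0.08 CPM in every library. The other genes of these lists were present, with CD14 at 7.02 to 11.4 CPM, ITGAM at 0.733 to 1.48 CPM, COL1A1 at 8.04 to 18.1 CPM and PDGFRB at 0.771 to 2.76 CPM. LYZ (28.1 to 57.0 CPM) fell by 0.92 on the log2 scale in replicates 2 and 3, and PECAM1 (4.67 to 21.4 CPM) rose by 0.69. In replicate 1 the log2 ratio of METTL3 to vector was 0.11 for LYZ, so it did not fall there, and 1.47 for PECAM1. The summed CPM were 36.6 to 49.3 with METTL3 and 45.6 to 65.1 with the vector for the 6 leukocyte genes, 17.3 to 19.8 and 8.90 to 20.1 for the 4 fibroblast genes, and 7.99 to 22.2 and 5.15 to 8.17 for the 3 endothelial genes. Their part in the oxidase values was not tested.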

How the data were processed

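Per the labels, poly(A) RNA of 6 OVCAR5 libraries was sequenced as paired-end reads after a stranded TruSeq preparation, whereas single-end sequencing and an NEBNext kit are given in the study's methods. The submitters' processing notes name fastp, HISAT2, featureCounts, Subread and GRCh38. Tool versions, the annotation release, the strand setting and the handling of multi-gene reads are not given in the sources used here. The authors deposited raw counts per gene, without normalization or filtering.

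Identifiers were matched to GENCODE release 44, which named 60507 of the 60649 rows. In R 4.3.3, the 22038 genes passing filterByExpr of edgeR 4.0.16 (22046 in replicates 2 and 3) were scaled by TMM and tested by quasi-likelihood (glmQLFTest after a robust glmQLFit). P-values were adjusted by Benjamini-Hochberg over all genes tested, with a threshold of 0.05. SE is the absolute log2 fold change divided by the root of the F statistic. CPM used the TMM factors, and level comparisons between genes were divided by the merged exon length. Functions were tested on simulated counts. DESeq2 1.42.0, which the study used, was an alternative, as were other size factors, upper-quartile scaling, other filters, halved counts, removal of GC and length trends (splines with 5 degrees of freedom), the replicate number as a block, and each library left out in turn. Leaving out libraries in the interaction fit was chosen after seeing the data.

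Same-numbered libraries deviated together from their group means (r = 0.33, 0.12 and 0.17 for numbers 1, 2 and 3, each over 0.1), which met the rule for taking the numbers as pairs. The main fits were made without the block. For single genes, the fit with it was examined only for the members and for list genes named for a call in replicates 2 and 3. It is given where it changed their call. Other genes, such as CYBB, and the interaction test were not examined with it. The pairing comes from the values, not from the labels. The correlation was also 0.21 between METTL3-overexpressing replicate 2 and vector control replicate 3. Between METTL3-overexpressing replicate 3 and vector control replicate 2 it was 0.13. Within replicates 2 and 3 the values thus do not single out the same-numbered libraries as pairs. Calls made there with the block rest on the numbers alone.

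The members, gene lists and comparisons were chosen with earlier results of these data known. Text names all 10 members, METTL3, up to 3 genes per list with the largest change among those called in all 6 libraries or in replicates 2 and 3, and the 5 genes most like NOX1, with exceptions marked. Sequences came from RefSeq. For NOX5, a gene of the same name (ENSG00000290203) in the annotation overlaps the counted one and was not analysed here. A few listed genes are not reported here.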

Additional observations from a re-analysis of the deposited data

How the results depend on the processing

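The NOX1 log2 fold change over all 6 libraries was 0.08 and turned negative with the replicate number as a block (-0.0714), with the block and the GC and length trend removed (-0.00567), and in replicates 2 and 3 alone (-0.58). Leaving out 1 library gave -0.51 (without METTL3-overexpressing replicate 1) to 0.38. In replicates 2 and 3 it stayed negative, at -0.79 to -0.40 with 1 library left out.

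Over all 6 libraries edgeR called 0 genes, DESeq2 280, edgeR with no filter 560, with the GC and length trend removed 1, with that and the block 6, with the block alone 0, and replicates 2 and 3 alone 3362. Leaving out 1 library gave 0 to 367 genes, the latter without vector control replicate 1. In replicates 2 and 3 the fit with the block called 5450 genes in place of 3362 (1469 higher, 1893 lower), and 6212 with the trend also removed (3603 higher, 2609 lower). Trend removal alone gave 2688 higher and 2016 lower. For replicate 1 against replicates 2 and 3, 1997 genes (936 higher, 1061 lower) became 3571 with DESeq2, 4220 with no filter, 3278 with the trend removed and 233 (without vector control replicate 3) to 9028 (without METTL3-overexpressing replicate 1) with 1 library left out, being 264 and 629 without METTL3-overexpressing replicates 2 and 3, and 5899 and 776 without vector control replicates 1 and 2. Upper-quartile scaling gave 1258 higher and 836 lower. The interaction count of 6652 (3242 positive, 3410 negative) became 6026 with the trend removed (2060 positive, 3966 negative).

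Among the other members, direction turned over all 6 libraries for NOX5 with the block and trend removal (-0.0234) or without METTL3-overexpressing replicate 2 (-0.13), for DUOX1 (-0.0672) and DUOX2 (-0.132) in replicates 2 and 3 alone, for DUOXA1 without replicate 2 of METTL3 (0.33) or vector (0.48), and for DUOXA2 without METTL3-overexpressing replicate 1 (-0.058). With 1 library left out, NOX5 ranged from -0.13 to 0.28, DUOXA1 from -0.36 to 0.48 and DUOXA2 from -0.058 to 1.04. In replicates 2 and 3 it turned for NOX5 without METTL3-overexpressing replicate 2 (-0.0484), for NOXA1 without replicate 3 of METTL3 (-0.041) or vector (-0.0292), for DUOX1 with the trend removed (0.0121), with the block as well (0.0261) or without vector control replicate 2 (0.28), for DUOX2 without vector control replicate 2 (0.00283), for DUOXA1 without replicate 2 of METTL3 (0.0507) or vector (0.19), and for DUOXA2 without vector control replicate 3 (-0.16). With 1 library left out, NOX5 ranged from -0.0484 to 0.43, NOXA1 from -0.041 to 0.19, DUOX1 from -0.35 to 0.28, DUOX2 from -0.25 to 0.00283, DUOXA1 from -1.48 to 0.19 and DUOXA2 from -0.16 to 0.43. None of these values was called. With the block and trend removal NOXA1 passed in replicates 2 and 3 (0.19, edgeR adjusted p = 0.0251). Apart from that and the CYBA call, the block changed no call of a member. The causes were not tested. NOX4, NOXO1, DUOXA1 and DUOXA2 rested on at most 67 reads in a library.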

Other observations

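Heme peroxidases, which use hydrogen peroxide as a substrate, were scarce in these cells. LPO and MPO failed the filter on low counts, and EPX and PXDN stayed under 0.45 CPM in every library. Neither of them was called over all 6 libraries or in replicates 2 and 3 by edgeR. PXDN measured 0.0886, 0.355 and 0.178 CPM in the METTL3-overexpressing libraries against 0.443, 0.248 and 0.163 CPM in the controls, lower with METTL3 in replicate 1 and higher in replicates 2 and 3. Its difference between replicate 1 and replicates 2 and 3 was -2.70 (SE 0.882), opposite in sign to those of DUOX1 and DUOX2. The PXDN values rest on 10, 44 and 18 reads with METTL3 and 42, 28 and 18 reads with the vector. The DUOX1 difference fell to 0.68 with the GC and length trend removed.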
